A study of Mus musculus with 8 samples.

Results

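Late neutrophil granule genes encode proteins that neutrophil precursors make after the promyelocyte stage and store in secondary and tertiary granules or in the cytosol. The 8 genes, Ltf, Ngp, Camp, Lcn2, Cd177, Mmp8, S100a8 and S100a9, were found by gene symbol among the 53700 genes of the count table. Matching by symbol uses no measured value, but the list was chosen with earlier results of these data known. All 8 were present in the table, and all 8 passed the filter on low counts that kept 12132 genes for testing. Their messenger RNA was measured by RNA sequencing in 8 libraries of sorted mouse bone marrow cells, covering 2 cell types and 4 donor genotypes with 1 library for each pairing of these.

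The cells were haematopoietic stem cells (HSC, CD48- CD150+) and multipotent progenitors (MPP, CD48+ CD150-), both sorted from LSK cells, the lineage-negative marrow cells that carry Sca-1 and Kit. Donor marrow on a CD45.2 background was Nfat5 +/+ Vav-Cre (labelled WT), Nfat5 fl/fl Vav-Cre (labelled N5), IFNAR1-deficient (labelled IFNAR), or Nfat5 fl/fl Vav-Cre together with IFNAR1 deficiency (labelled DKO). In each case the donor marrow had been grafted into irradiated wild-type CD45.1 mice, and CD45.2+ cells were collected 13 weeks later. Each library was a pool from 5 recipients. Vav-Cre acts throughout blood-forming cells, and every graft was placed in the same wild-type environment. NFAT5 is a transcription factor of the response to osmotic stress, and IFNAR1 is required for signalling by type I interferons. Mouse ages and the extent of the deletions are not given in the labels. Values listed for the libraries of a cell type follow the order WT, N5, IFNAR, DKO.

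Neutrophils acquire their granules in waves. Promyelocytes make primary (azurophil) granules, which hold myeloperoxidase and serine proteases such as neutrophil elastase. Myelocytes and metamyelocytes make secondary (specific) granules with lactoferrin, cathelicidin and lipocalin-2, and later cells add tertiary (gelatinase) granules. The transcription factor C/EBPε is required for secondary granule genes, and the cytosolic pair S100A8 and S100A9 (calprotectin) accumulates in the same late cells. HSC and MPP lie well upstream of these stages. A comparison of HSC with MPP, and of the genotypes within each, shows at what level these transcripts were present in the sorted pools and whether the 8 genes moved as a group.

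The genes fall in few places of the genome. By the RefSeq promoter table (build GRCm38.p6), Ltf, Ngp and Camp lie close together on chromosome 9, with start sites 570 kb apart for Ngp and Camp and 599 kb apart for Ltf and Ngp. Mmp8 is on the same chromosome but far away. S100a8 and S100a9 are neighbours on opposite strands of chromosome 3, with start sites 26.7 kb apart, while Lcn2 is on chromosome 2 and Cd177 on chromosome 7. The counts themselves were made on GRCm39, so these positions describe the table's build and not the deposited values. The sequences below are the 250 bases upstream of the RefSeq start sites of the 4 genes whose spread over the 8 libraries was most alike, as described further on. They are written 5′ to 3′ on the gene's own strand. Capitals mark matches, on either strand, to the 8-base C/EBP-like pattern TTNNGNAA and to the TATA box TATAAA. The windows are chr3:90668821-90669070 (+) for S100a8, chr3:90695722-90695971 (-) for S100a9, chr9:110419558-110419807 (+) for Ngp and chr9:109849457-109849706 (-) for Camp.
S100a8: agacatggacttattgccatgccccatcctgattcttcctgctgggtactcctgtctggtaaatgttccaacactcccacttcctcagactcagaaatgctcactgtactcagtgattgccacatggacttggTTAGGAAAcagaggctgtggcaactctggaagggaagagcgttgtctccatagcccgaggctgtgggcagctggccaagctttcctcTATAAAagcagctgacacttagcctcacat
S100a9: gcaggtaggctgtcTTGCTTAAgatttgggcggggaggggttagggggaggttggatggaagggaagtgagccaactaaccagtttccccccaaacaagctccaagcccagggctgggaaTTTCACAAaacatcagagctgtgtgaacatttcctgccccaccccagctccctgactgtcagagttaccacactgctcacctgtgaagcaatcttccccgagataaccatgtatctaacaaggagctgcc
Ngp: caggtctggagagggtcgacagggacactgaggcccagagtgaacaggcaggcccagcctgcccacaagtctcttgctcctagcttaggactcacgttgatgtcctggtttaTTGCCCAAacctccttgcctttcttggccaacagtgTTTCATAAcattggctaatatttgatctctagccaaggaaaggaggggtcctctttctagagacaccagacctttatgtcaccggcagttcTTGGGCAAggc
Camp: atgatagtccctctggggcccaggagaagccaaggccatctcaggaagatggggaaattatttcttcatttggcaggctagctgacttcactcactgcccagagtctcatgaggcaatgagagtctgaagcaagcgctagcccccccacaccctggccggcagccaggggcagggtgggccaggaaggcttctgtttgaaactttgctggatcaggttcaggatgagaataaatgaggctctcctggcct

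Over the 8 windows, the C/EBP-like pattern was present in 7, with Camp the exception, against 36.8% of the 32851 RefSeq promoters of the same length. Ngp held 3 matches, at 138, 102 and 11 bases upstream of its start. Ltf, S100a9 and Mmp8 held 2 each, and S100a8, Lcn2 and Cd177 held 1 each. The shorter PU.1-like pattern GAGGAA was present in 5 of the 8 windows, against 23.3% of promoters. TATAAA was present in S100a8, 30 bases upstream of the start, and in Cd177, 40 bases upstream, against 12.4% of promoters. No match to one pattern overlapped a match to another. Both strands were searched, and a match describes letters in the window, not a bound site.

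Sequencing depth ran from 28871693 counts in the MPP library labelled N5 to 47205950 in the HSC library labelled DKO, a 1.64-fold range. A count of 3 in a library corresponds to 0.0630 to 0.105 CPM (counts scaled to a common library size after TMM normalization), the unit used below. Intervals and floors cover counting error only. The sorted populations carried their markers. Each of the 5 HSC genes measured (Slamf1, Hlf, Mecom, Procr and Fgd5) had a higher mean in HSC, and Cd48, Flt3 and Cd34 had higher means in MPP. Kit and Ly6a were present in all 8 libraries. The targeted genes did not follow the labels. Nfat5 ran from 7.66 to 35.4 CPM in the libraries labelled N5 or DKO and from 0.192 to 33.0 CPM in the others. Ifnar1 ran from 34.9 to 125 CPM in the libraries labelled IFNAR or DKO and from 37.0 to 125 CPM in the others. A gene sum cannot separate deleted exons from those that remain. Libraries are therefore named by label, and every genotype direction below rests on labels that these transcripts did not follow.

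Late granule transcripts were present in both populations, and their summed means differed by less than the spread between libraries. The sums over the 8 genes were 560 (95% Poisson interval 553 to 568), 665 (656 to 674), 497 (490 to 504) and 632 (625 to 639) CPM across the 4 HSC libraries, in the order given above. For MPP they were 593 (584 to 602), 133 (129 to 138), 578 (569.9 to 585) and 755 (746 to 764) CPM. The mean was 589 ± 75.3 CPM in HSC and 515 ± 267 CPM in MPP (mean ± SD, n = 4 libraries each, here and below). The MPP library labelled N5 alone lay far below the rest, and the other 3 MPP libraries had a mean of 642 ± 98.3 CPM (n = 3). Without it the sign of the difference turned, from 73.7 CPM higher in HSC to -53.4 CPM. In bulk samples such as these, fewer cells with a transcript and less transcript per cell cannot be told apart.

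**Figure D1:**
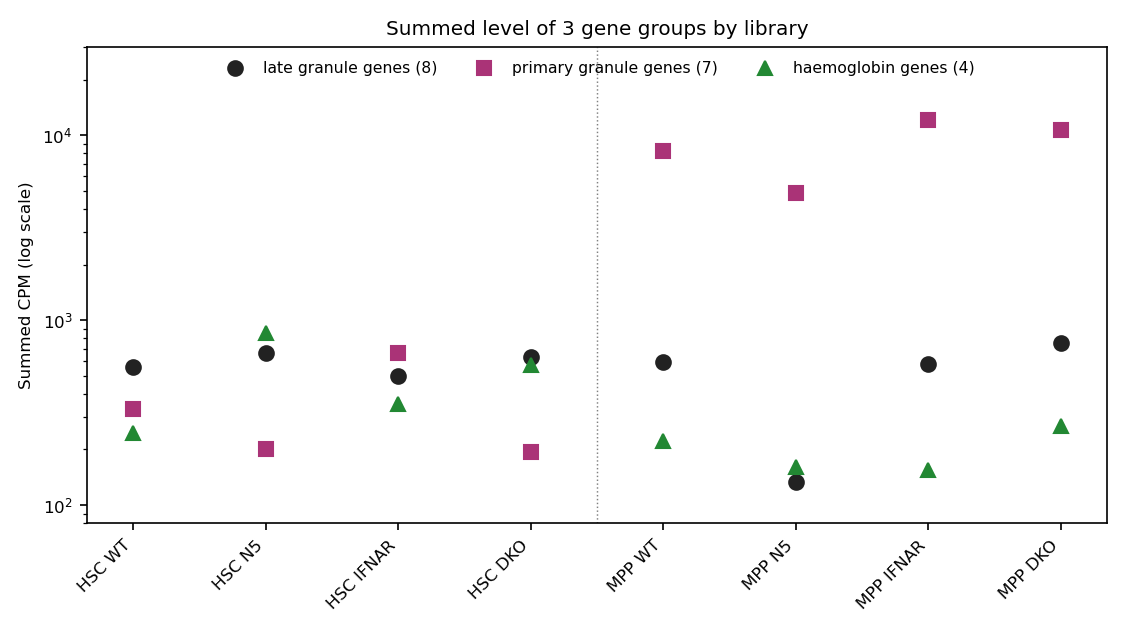
Summed CPM (log scale) of the 8 late granule genes, 7 primary granule genes and 4 haemoglobin genes in each of the 8 libraries, 1 point per library and gene group. The late granule sum lies between 497 and 755 CPM in 7 libraries and at 133 CPM in the MPP library labelled N5, while the primary granule sum is at most 663 CPM in the HSC libraries and at least 4883 CPM in the MPP libraries.

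The primary granule genes lay apart from this pattern. Mpo, Elane, Prtn3, Ctsg, Prss57, Ms4a3 and Fcnb summed to 329, 201, 663 and 195 CPM in HSC. In MPP they summed to 8229, 4883, 12163 and 10735 CPM. No HSC library reached the level of any MPP library, and the MPP mean was 26.0-fold that of HSC. Mpo, with a mean of 6643 CPM, made up most of the MPP sum. By the ratio of means, Prtn3 (mean 167 CPM in HSC and 455 CPM in MPP) and Fcnb (2.55 and 6.44 CPM) differed least. Fcnb had a count in only 4 libraries, and its log2 fold change (HSC over MPP) in the edgeR fit below was -7.37. The ratio of the late to the primary sum was 0.749 to 3.31 across HSC libraries and 0.0273 to 0.0721 across MPP libraries. No test was made of the ratio. As a measure of red cell transcripts in the same libraries, 4 haemoglobin genes summed to 245 to 852 CPM in HSC and 156 to 269 CPM in MPP.

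Of the secondary granule genes, Ltf encodes lactoferrin, an iron-binding protein. Its level was 247, 107, 26.9 and 122 CPM in HSC and 216, 19.0, 139.9 and 114 CPM in MPP. Ltf was the most uneven of the 6 genes found in every library, with a 13.0-fold range. It was highest in the HSC library labelled WT and lowest in the MPP library labelled N5, with HSC and MPP values interleaved.

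Ngp encodes neutrophilic granule protein, a relative of the cathelicidins found in mouse secondary granules. It was measured at 106, 137, 157 and 194 CPM in HSC and 126, 25.5, 61.7 and 171 CPM in MPP. The HSC values were narrower than the MPP values, and 3 of 4 genotypes had more Ngp in HSC. Camp encodes the cathelicidin precursor, which is cut to an antimicrobial peptide. It was measured at 22.9, 61.7, 68.4 and 44.7 CPM in HSC and 44.6, 12.2, 34.7 and 67.3 CPM in MPP. Camp was higher in HSC in 2 genotypes and lower in the other 2.

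Lcn2 encodes lipocalin-2, which withholds iron from bacteria by binding their siderophores. It was measured at 27.4, 49.8, 24.5 and 32.4 CPM in HSC and 20.6, 7.38, 31.0 and 83.9 CPM in MPP. Its highest and lowest values were both in MPP, in the libraries labelled DKO and N5. Cd177 encodes a membrane-anchored glycoprotein of neutrophils that binds PECAM1 in humans. Its level was 22.4 CPM in HSC labelled WT, 25.5 CPM in HSC labelled N5, 16.8 CPM in MPP labelled WT and 23.3 CPM in MPP labelled IFNAR. In the other 4 libraries Cd177 had no count. The upper 95% Poisson limits there were 0.0774 to 0.129 CPM, which cover counting error only. In both cell types Cd177 was thus either between 16.8 and 25.5 CPM or not detected.

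Mmp8 encodes neutrophil collagenase. It was measured at 0, 0, 2.95 and 16.8 CPM in HSC and 0.198, 0, 7.61 and 9.35 CPM in MPP. The value of 0.198 CPM rests on 6 counts. Among the 2753 tested genes with a mean level of 5 to 20 CPM, 61.3% had no count in at least 1 library and 6.43% had none in 4 or more. Cd177 (mean 11.0 CPM, 4 libraries at 0) lay among the latter, and Mmp8 (mean 4.62 CPM) had 3 libraries at 0.

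S100a8 and S100a9 encode the subunits of calprotectin, a calcium- and zinc-binding complex of the neutrophil cytosol. S100a8 was measured at 80.4, 156, 123 and 111 CPM in HSC and 102, 36.5, 148 and 164 CPM in MPP. S100a9 was measured at 55.2, 129, 93.6 and 111 CPM in HSC and 66.3, 32.9, 132 and 146 CPM in MPP. Both subunits were lowest in the MPP library labelled N5, and their 3 highest values were in the MPP libraries labelled DKO and IFNAR and the HSC library labelled N5. Both were higher in MPP than in HSC in 3 of 4 genotypes.

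**Figure D2:**
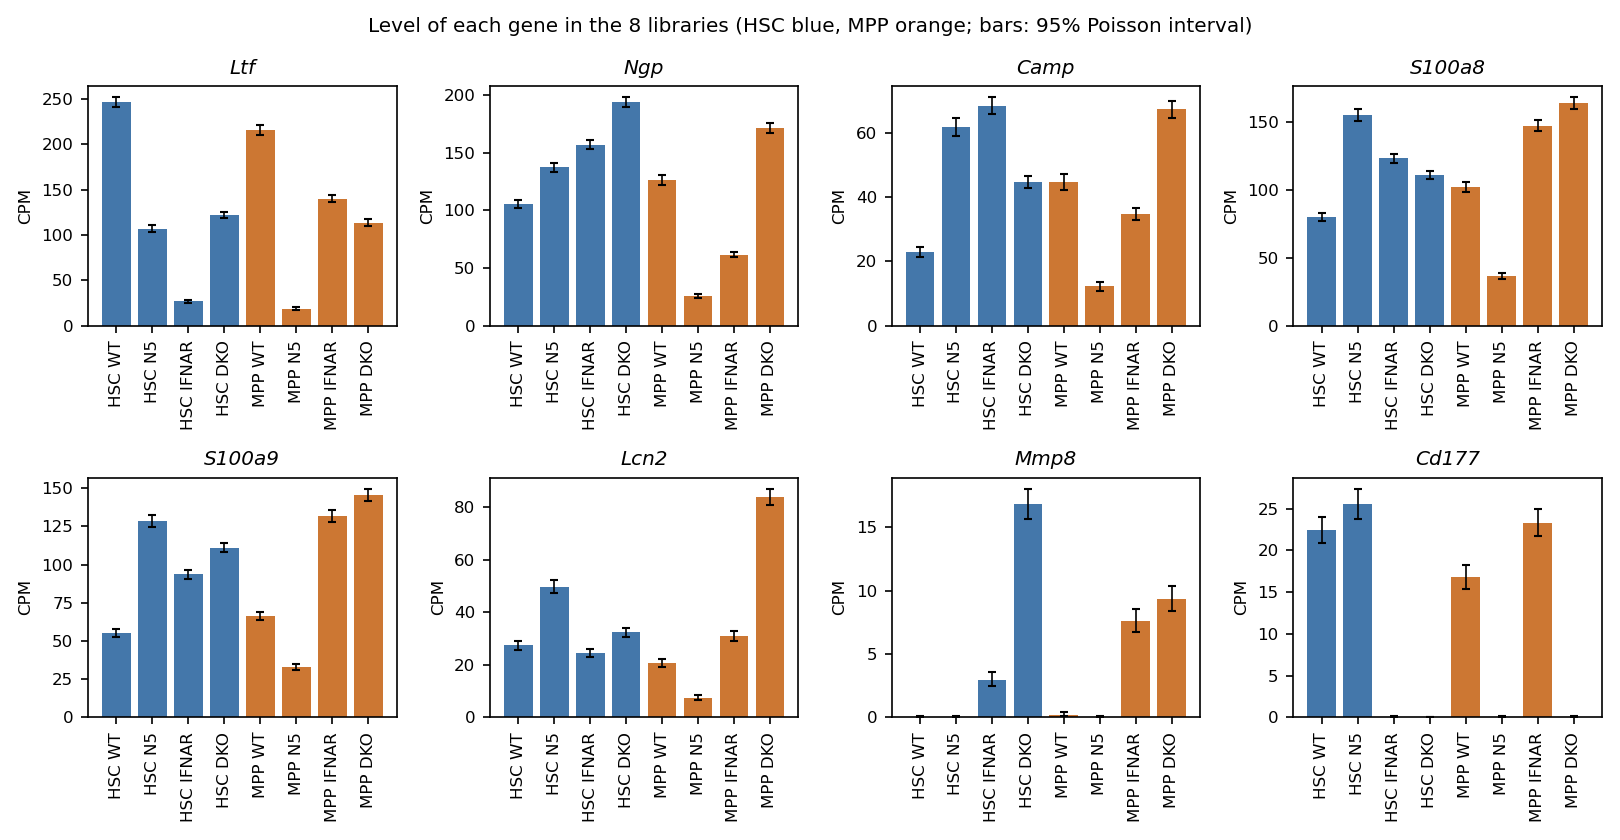
Level in CPM (linear axis from 0) of each of the 8 genes in the 8 libraries, with HSC bars in blue and MPP bars in orange and 95% Poisson intervals for counting error. Ltf, Ngp, Camp, Lcn2, S100a8 and S100a9 are lowest in the MPP library labelled N5, and Mmp8 and Cd177 have no bar in 3 and 4 libraries.

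Scaled by exon length, S100a8 and S100a9 had the highest levels in all 8 libraries and Ngp the next. Their mean levels over the 8 libraries were 183 CPM per kb for S100a9, 166 for S100a8 and 100.03 for Ngp. Camp followed with 58.8 CPM per kb and Ltf with 35.9. Lcn2 had 13.2, Cd177 3.87 and Mmp8 1.90 CPM per kb. S100a8 was ahead of S100a9 in the libraries labelled WT of both cell types, and S100a9 was ahead in the other 6. On the count scale, which is not corrected for length, the largest single member differed by library. It was Ltf in both libraries labelled WT, with 44.0% and 36.4% of the late granule sum. In the other 6 libraries it was Ngp or S100a8.

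The comparison of HSC with MPP asked whether any of the 8 genes differed in level between the stem cell and progenitor gates. With genotype as a block, 7 of 8 had a positive log2 fold change (HSC over MPP), with a median of 0.23, against 44.2% positive and a median of -0.10 over all 12132 genes. Each group had 1 library, so the p-values and intervals rest only on the spread that genotype and cell type leave unexplained. Any difference between HSC and MPP that varied with genotype is part of that spread. None of the 8 was called by edgeR's quasi-likelihood test at a Benjamini-Hochberg adjusted p of 0.05, a test that called 2 genes in all (0.0165%). None had an unadjusted p under 0.05, which 1225 genes had (10.1%). DESeq2 called 1880 genes (15.5%) and limma-voom 156 (1.29%), again with 0 of the 8 among them. The direction was not the same in every tool, since limma-voom had 3 of 8 positive and a median of -0.03. In edgeR the sign was opposite to that of the plain means for Lcn2 and Mmp8. Lcn2 had a log2 fold change of 0.29 with means of 33.5 CPM in HSC and 35.7 CPM in MPP. Mmp8 had -1.35 with means of 4.95 and 4.29 CPM. Ngp had the smallest p of the 8, with 148 ± 37.0 CPM in HSC and 96.1 ± 65.0 CPM in MPP and a log2 fold change of 0.91 ± 0.51 (SE, adjusted p = 0.663).

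The intervals show how much difference these data leave room for. For S100a8, with 118 ± 31.1 CPM in HSC and 113 ± 57.0 CPM in MPP, the log2 fold change was 0.18 with a 95% interval of -1.13 to 1.48. For S100a9 it was 0.16 (-1.10 to 1.42), for Ngp 0.91 (-0.38 to 2.20) and for Camp 0.41 (-1.44 to 2.26). Each of these 4 intervals reaches past 2-fold (1 on the log2 scale) in at least one direction. Ltf (-1.99 to 2.23) and Lcn2 (-1.91 to 2.48) had wider ones, and those of Mmp8 (-6.22 to 3.51) and Cd177 (-11.8 to 12.5) hold almost any change. In 0 of the 8 genes did the HSC values lie wholly above or below the MPP values, which occurred in 10.4% of all tested genes. Leaving out the MPP library labelled N5 left 1 of 8 positive with a median of -0.41, and leaving out the HSC library labelled N5 left the same count, since each leaves its partner without a match. With any 1 of the other 6 left out, 7 of 8 stayed positive, with a median of at most 0.49.

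The other lists of the granulocyte pathway describe the background to this. Among primary granule genes, 7 of 7 tested were lower in HSC by sign, with a median log2 fold change of -6.74. Mpo, the peroxidase, averaged 123 ± 133 CPM in HSC and 6643 ± 2222 CPM in MPP (log2 fold change -6.55 ± 2.03, edgeR adjusted p = 0.391). Elane had 37.5 ± 44.3 and 931 ± 425 CPM, and the protease gene Ctsg 11.9 ± 10.3 and 723 ± 328 CPM. None passed the adjusted threshold in edgeR, 6 had an unadjusted p under 0.05, and DESeq2 called 6 lower. The 8 late genes thus had no call in any of the 3 tools, and the primary genes had calls in DESeq2. The difference between the lists was not tested.

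**Figure D3:**
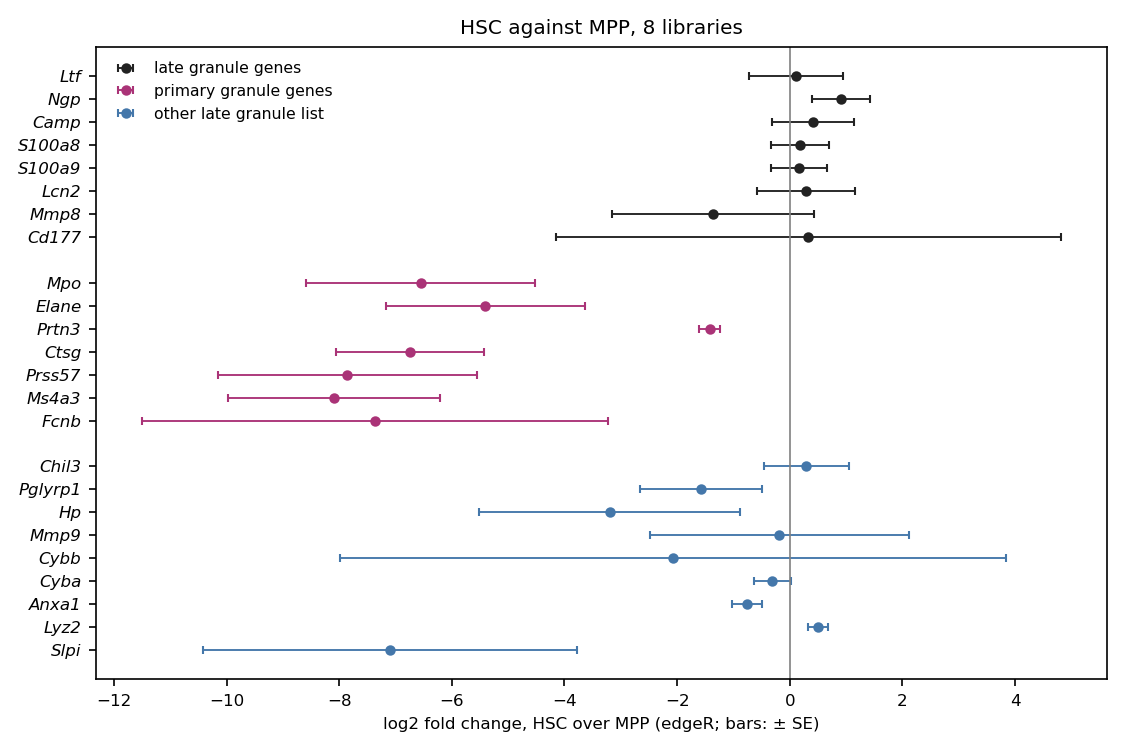
Log2 fold change of HSC over MPP (edgeR, 8 libraries, bars ± SE) for the 8 late granule genes, 7 primary granule genes and 9 tested genes of a list of other late granule genes. The late granule genes lie around 0, from -1.35 for Mmp8 to 0.91 for Ngp, and all primary granule genes lie below 0.

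Of 15 other late granule genes, 9 could be tested, with 2 positive and 7 negative log2 fold changes, a median of -0.76 and 0 called by edgeR. DESeq2 called 1 higher and 2 lower. Lyz2, the lysozyme gene of all myeloid cells, averaged 824 ± 188 CPM in HSC and 581 ± 124 CPM in MPP. Anxa1, an annexin of myeloid cells, had 159 ± 73.2 and 249.8 ± 48.1 CPM, and Chil3, a chitinase-like protein of neutrophils and macrophages, 83.0 ± 26.5 and 95.6 ± 60.3 CPM. Olfm4, Mmp25, Orm1 and Bpi had no count in any library.

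Markers of mature neutrophils were sparse. Of 17 such genes in the table, 7 could be tested, with 1 positive and 6 negative, a median of -3.82, 0 called by edgeR and 3 called lower by DESeq2. Ly6g, the antigen that defines mouse neutrophils, stood at 7.15 CPM in HSC and 2.86 CPM in MPP among the libraries labelled WT. It had 1 count in 2 other libraries and 0 in 4. Cxcr2, the chemokine receptor of mature neutrophils, had 11.1 CPM in the MPP library labelled DKO, 2 counts in the HSC library labelled DKO and 0 in the other 6. Retnlg, a resistin-like gene of mature neutrophils, was at 0 in the HSC libraries labelled WT and IFNAR and at 24.3 and 5.46 CPM in those labelled N5 and DKO. In MPP it had 10.3, 1.43, 17.0 and 14.0 CPM. Csf3r, the receptor for G-CSF, was present in all 8 libraries, with 108 ± 56.6 CPM in HSC and 234 ± 39.2 CPM in MPP, and Padi4 had 243 ± 47.5 and 216 ± 35.5 CPM. Trem3, a receptor of the TREM family, had no count in 3 HSC libraries, 6.38 CPM in the HSC library labelled N5 and 33.2, 5.38, 27.1 and 32.0 CPM in MPP. DESeq2 called Trem3 lower in HSC (adjusted p = 1.73e-06) and edgeR did not (adjusted p = 0.468). The whole list summed to 305 to 419 CPM in HSC and 457 to 602 CPM in MPP. On average Csf3r and Padi4 made up most of this sum in both cell types, so it says little about the other genes of the list. The sum was lowest in the HSC library labelled WT, which had the most Ltf and the most Ly6g. It was highest in the MPP library labelled DKO, which had the highest late granule sum. The part of mature neutrophils in the late granule levels was not tested.

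Of 7 granulocyte transcription factors, 4 could be tested, with 1 positive and 3 negative, a median of -1.06 and 0 called by edgeR (DESeq2 called 1 higher and 2 lower). Spi1, which encodes PU.1, averaged 90.8 ± 47.6 CPM in HSC and 176 ± 30.7 CPM in MPP. Runx1 had 105 ± 35.4 and 58.3 ± 22.7 CPM, and Cebpd 7.54 ± 2.31 and 16.5 ± 6.97 CPM. Cebpe, singled out after its values were seen because it is required for secondary granules, had no count in any HSC library and 4.35, 4.06, 4.19 and 5.52 CPM in MPP. The late granule genes summed to 497 to 665 CPM in the 4 HSC libraries and to 133 CPM in the MPP library labelled N5. The part of Cebpe in these levels was not tested. Among 10 receptors, partners and inhibitors of the 8 proteins, 6 could be tested, with 2 positive and 4 negative, a median of -1.86, 0 called by edgeR and 1 called in each direction by DESeq2. Pecam1, the partner of CD177, averaged 56.6 ± 34.5 CPM in HSC and 146 ± 34.6 CPM in MPP. Itgb2 had 140.0 ± 53.1 and 90.1 ± 29.9 CPM, and Itgam, the other chain of the leukocyte integrin Mac-1, 9.65 ± 8.61 and 28.2 ± 10.7 CPM.

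The MPP library labelled N5 held the lowest value of all 8 libraries for Ltf, Ngp, Camp, S100a8, S100a9 and Lcn2. It was the sole lowest library for 7.88% of tested genes. Against the mean of the other 3 MPP libraries, Ltf was 8.26-fold lower, Lcn2 6.12-fold, Ngp 4.69-fold, Camp 4.00-fold, S100a8 3.78-fold and S100a9 3.48-fold. Of the 8 genes, 7 stood below 0.5 times the lowest other MPP library, a rule met by 5.92% of tested genes. Cd177, the exception, was at 0 in another MPP library too. That rule was chosen after the values were seen, and the Mmp8 entry rests on 0 against 6 counts in the lowest other library. The same held for 1 of 7 primary granule genes, 3 of 9 other late granule genes and 3 of 7 mature neutrophil genes. It held for 0 of 4 tested transcription factors, which leave out Gfi1, a gene that did not pass the filter. The cutoff parted close values. S100a9 stood at 0.497 times the lowest other MPP library. The primary granule genes Ctsg, Elane, Ms4a3, Prtn3 and Mpo stood at 0.508 to 0.606 times theirs. They too were thus lower here than in any other MPP library, while Prss57 stood at 1.13 times.

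Some other gene groups were also low in this library, and others were not. Primary granule genes summed to 4883 CPM against 8229 to 12163 CPM in the other 3 MPP libraries, monocyte and macrophage markers to 173 against 338 to 592 CPM, and B cell genes to 1033 against 1461 to 2431 CPM. Of the monocyte and macrophage markers, Csf1r, F13a1 and Ly6c2 stood at 0.0191, 0.151 and 0.604 times the lowest other MPP library. Ccr2 stood at 1.15 times it, and C1qb was highest of all 8 libraries here (13.2 CPM). Of the B cell genes, Ighm and Igkc were lower here than in any other MPP library, and Cd79b, at 38.5 CPM, lay within the 34.2 to 52.9 CPM of the others. Cd79a, Vpreb1 and Igll1 were not lowest here, at 1.69, 1.40 and 2.78 times the lowest other MPP library. Erythroid genes summed to 213 against 338 to 445 CPM, and eosinophil, basophil and mast cell genes to 58.6 against 113 to 140.1 CPM. Other late granule genes summed to 750 against 1200 to 1424 CPM, and mature neutrophil genes to 457 against 492 to 602 CPM. Of the other late granule genes, Chil3 had 6.19 CPM in this library and at least 115 CPM in each of the others. The 4 haemoglobin genes (160 against 156 to 269 CPM), megakaryocyte genes (110 against 45.4 to 163 CPM) and receptors, partners and inhibitors (271 against 253 to 351 CPM) lay within the range of the others. Granulocyte transcription factors summed to 312 against 197 to 304 CPM. Spi1, at 206 CPM here, made up most of that sum. Cebpd and Cebpe stood at 1.15 and 0.968 times the lowest other MPP library, and Gfi1 had no count here. Markers of the sorted populations were not low, since Cd48, Flt3 and Cd34 together had 2439 against 2024 to 2582 CPM, and Kit and Ly6a 1155 against 862 to 956 CPM. This library also had the smallest total count. The part of these differences in the low late granule level was not tested.

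Pairs of single libraries, compared on the log2 CPM scale (prior count 2), show the same library again. Between HSC and MPP labelled N5, 7 of 8 genes were more than 2-fold higher in HSC (19.3% of all tested genes) and 0 lower (22.1%), with a median of 2.38. Mmp8 had no count in either. In the pair labelled WT, 0 were higher (19%) and 1 lower (24.2%), with a median of -0.26. The lower gene was Mmp8, with 0 against 6 counts. In the pair labelled IFNAR, 1 was higher (22%) and 3 lower (23.4%), with a median of -0.42, and in the pair labelled DKO 0 were higher (20.1%) and 1 lower (22.2%), with a median of -0.20. In 3 of 4 genotypes, then, the median lay slightly below 0. These pairs have no replicates, and no test was made.

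**Figure D4:**
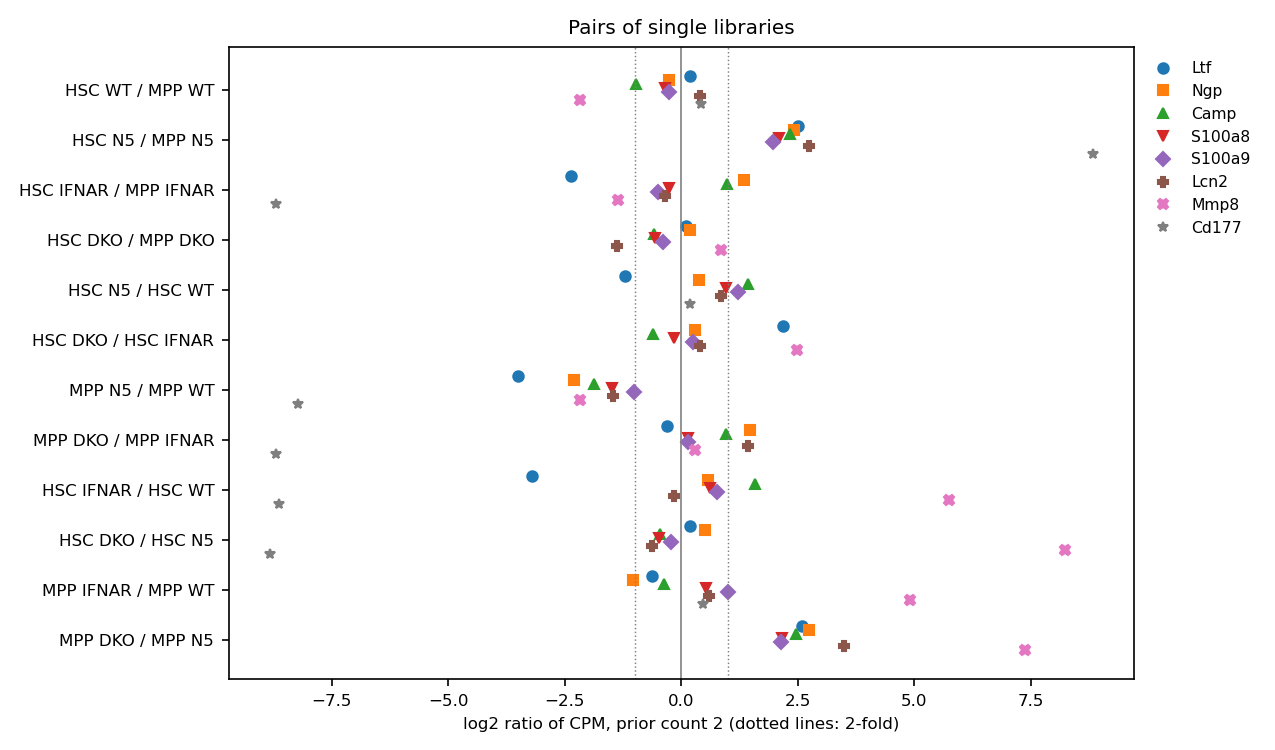
Log2 ratio of CPM (prior count of 2) for each of the 8 genes in 12 pairs of single libraries, 1 marker per gene, with dotted lines at 2-fold and genes without a count in both libraries left out. The genes shift together where the MPP library labelled N5 is one of the pair, and Cd177 and Mmp8 lie far out where one library has no count, at a distance that depends on the prior count.

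The comparison of libraries labelled N5 or DKO with those labelled WT or IFNAR asked whether loss of Nfat5 altered the late granule genes. With cell type and Ifnar1 loss as terms, 5 of 8 had a positive and 3 a negative log2 fold change, with a median of 0.03, against 51.6% positive and a median of 0.02 over all genes. None was called by edgeR, which called 0 of 12132 genes (0%), with 338 genes (2.79%) and 0 of the 8 at an unadjusted p under 0.05. DESeq2 called 166 genes (1.37%) and 0 of the 8, and limma-voom called none. Lcn2 had 43.4 ± 32.2 CPM in the libraries labelled as Nfat5-deficient and 25.9 ± 4.40 CPM in the others (log2 fold change 0.65 ± 0.74, SE, edgeR adjusted p = 1), and Ltf had 90.5 ± 48.1 and 157 ± 97.9 CPM (-0.73 ± 0.93). The intervals ran from -1.07 to 1.11 for S100a8, from -0.80 to 1.33 for S100a9 and from -1.35 to 1.45 for Ngp.

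The median near 0 joins pairs that differed. Within MPP, N5 against WT had 8 of 8 genes more than 2-fold lower (15.3% of all tested genes) and 0 higher (15.4%), with a median of -2.02. The Mmp8 entry rests on 0 against 6 counts, so its size depends on the prior count, and S100a9 passed narrowly (-1.008). Within HSC, N5 against WT had 2 higher (22.2%) and 1 lower (19.3%), with a median of 0.62. DKO against IFNAR had 2 higher (21.6%) and 0 lower (19.5%) in HSC, with a median of 0.28. In MPP the same pair had 2 higher (18.7%) and 1 lower (16.2%), with a median of 0.22. A fall of all 8 genes, with that limit for Mmp8, was thus seen in 1 of 4 pairs, the one that holds the MPP library labelled N5. Without that library 7 of 8 were positive for Nfat5 loss, with a median of 0.47 and 0 at an unadjusted p under 0.05. The lowest median with 1 library left out was -0.38, without the HSC library labelled N5.

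The comparison of libraries labelled IFNAR or DKO with those labelled WT or N5 asked the same of the interferon receptor. Of the 8 genes 6 had a positive and 2 a negative log2 fold change, with a median of 0.60, against 49.6% positive and a median of -0.01 over all genes. None was called by edgeR, which called 0 genes (0%) and had 398 genes (3.28%) at an unadjusted p under 0.05, Mmp8 among them. S100a9 had 121 ± 22.9 CPM in the libraries labelled as IFNAR1-deficient and 70.7 ± 40.9 CPM in the others, with a log2 fold change of 0.82 ± 0.45 (SE, interval -0.26 to 1.89, edgeR adjusted p = 1). S100a8 had 136 ± 23.9 and 93.7 ± 49.5 CPM (0.58 ± 0.46), and Ngp 146 ± 58.1 and 98.6 ± 50.5 CPM (0.56 ± 0.57). All 3 were higher in 3 of 4 pairs, and leaving out the MPP library labelled N5 brought the median of the 8 genes to 0.16. Without the HSC library labelled N5 it was 1.13.

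Mmp8 was the one gene of the 8 whose groups did not overlap in this comparison, as in 2.37% of tested genes. It had 2.95 to 16.8 CPM in the 4 libraries labelled IFNAR or DKO and 0 to 0.198 CPM in the 4 labelled WT or N5, and was higher in 4 of 4 pairs. The log2 fold change was 8.45 ± 2.50 (SE, edgeR adjusted p = 1), and its size depends on the prior count because 3 of the low libraries had no count. DESeq2 called it (8.62, adjusted p = 0.000342), as 1 of 233 genes called (1.92%). Limma-voom called 1 gene in all (0.00824%), which was not Mmp8. For Nfat5 loss, 0 of the 8 genes had groups that did not overlap (2.27% of tested genes).

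Pairs for the interferon receptor were uneven as well. IFNAR against WT had 2 genes more than 2-fold higher (21.7%) and 2 lower (21.5%) in HSC, with a median of 0.60. In MPP that pair had 1 higher (14.5%) and 1 lower (18.7%), with a median of 0.50. DKO against N5 had 1 higher (19.8%) and 1 lower (20.2%) in HSC, with a median of -0.34. In MPP it had 7 higher (16.3%) and 0 lower (17.1%), with a median of 2.52, the library labelled N5 being the lower one. These pairs use the same libraries as those for Nfat5 loss, so the 2 sets are not independent.

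Whether the effect of one factor depended on another was tested with 3 interaction terms, and edgeR called 0 of 12132 genes (0%) for each. For cell type by Nfat5 loss, 8 of 8 genes had a positive value, meaning a higher N5 and DKO level relative to the other labels in HSC than in MPP. The median was 1.08, against 51.8% positive and a median of 0.05 over all genes. The value was 1.15 ± 0.83 (SE) for S100a9, and 0 of the 8 had an unadjusted p under 0.05 where 536 genes did (4.42%). For cell type by Ifnar1 loss, 1 of 8 was positive with a median of -1.25, and Cd177 alone had an unadjusted p under 0.05 (0.0439, adjusted p = 0.999), as did 585 genes (4.82%). For Nfat5 by Ifnar1 loss, 6 of 8 were positive with a median of 0.63, and 0 of the 8 were among the 404 genes (3.33%) at an unadjusted p under 0.05. These values rested on few libraries. Without the MPP library labelled N5, 5 of 8 were positive for cell type by Nfat5 loss (median 0.25), 3 of 8 for cell type by Ifnar1 loss (median -0.44) and 3 of 8 for Nfat5 by Ifnar1 loss (median -0.58). Over all 8 libraries left out in turn, the medians ran from 0.25 to 2.36, from -2.16 to -0.44 and from -0.58 to 2.91 in the same order. DESeq2 called Cd177 for Nfat5 by Ifnar1 loss (adjusted p = 0.00240, 3.24% of genes called) and for cell type by Nfat5 loss (adjusted p = 3.40e-06, 4.82%). Its fitted sizes are not given, since Cd177 was at 0 in 4 libraries, and edgeR (adjusted p = 1) and limma-voom did not call it.

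Agreement among the 8 genes was described by library shares. Each gene's CPM over the 8 libraries was set to 100%, and the overlap of 2 genes is the sum over libraries of the smaller share, with 100% for identical patterns. S100a8 and S100a9, which form 1 complex, overlapped by 94.8%, the highest of the 28 pairs. Camp overlapped S100a8 by 90.9%, S100a9 by 88.7% and Ngp by 87.9%. Mmp8 and Cd177 overlapped least, by 21.1%, and the only libraries with a count of both were MPP libraries labelled WT and IFNAR.

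Set against the mean pattern of the other 7 genes, S100a8 overlapped by 91.3%, S100a9 by 89.6%, Ngp by 87.3%, Camp by 83.7% and Lcn2 by 82.0%. Ltf overlapped by 73.4%, Mmp8 by 51.2% and Cd177 by 47.4%. The same mean patterns overlapped 11752 other genes by a median of 72.7% to 74.3%. These were all other genes with at least 10 CPM in any library, not matched to the 8 genes on level. The share of those genes with a smaller overlap was 99.9% for S100a8, 99.4% for S100a9, 97.6% for Ngp, 88.9% for Camp and 78.9% for Lcn2. It was 51.6% for Ltf, 16.7% for Mmp8 and 14.7% for Cd177. The overlaps are descriptions over 8 libraries that share sorts and depths, and carry no p. The mean patterns include Mmp8 and Cd177, whose counts lie in few libraries. Between pairs of S100a8, S100a9, Ngp, Camp and Lcn2 the overlap was 78.3% to 94.8%, and Ltf overlapped these 5 by 67.1% to 72.9%.

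**Figure D5:**
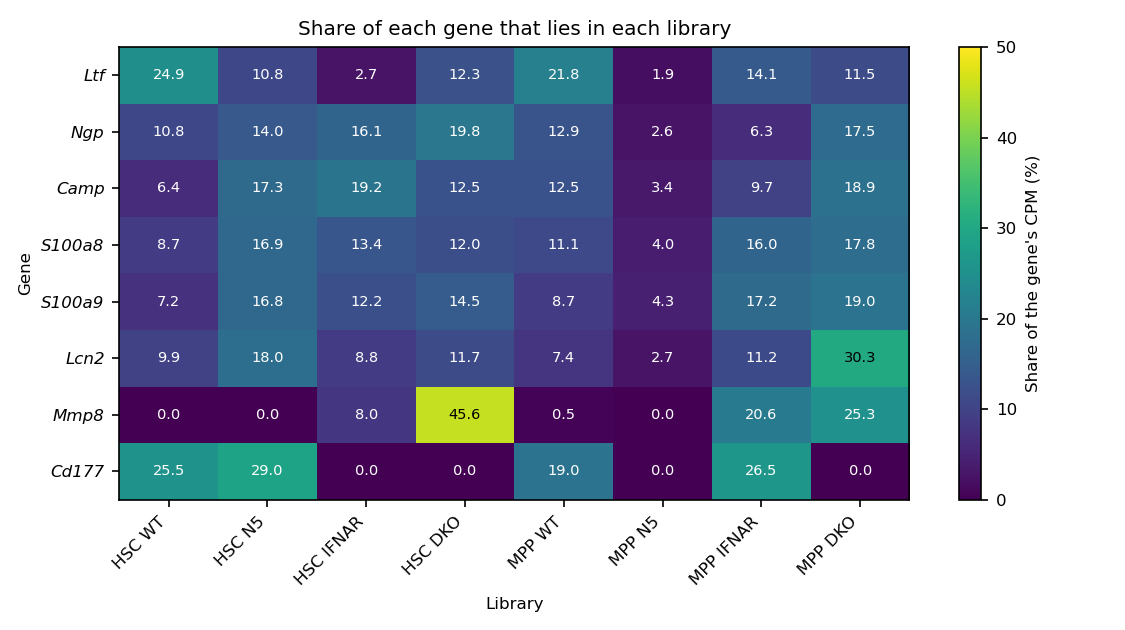
Share (%) of each gene's summed CPM that lies in each of the 8 libraries, 1 row per gene and 1 column per library, with rows adding to 100%. The MPP library labelled N5 holds 1.91% to 4.31% of Ltf, Ngp, Camp, S100a8, S100a9 and Lcn2, Ltf has 24.9% in the HSC library labelled WT, and Mmp8 has 45.6% in the HSC library labelled DKO.

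Count ratios within a library do not depend on scaling between libraries. S100a8 to S100a9 ran from 0.998 to 1.54, a 1.55-fold range. Ngp to Camp ran from 1.78 to 4.62, a 2.60-fold range, and Lcn2 to S100a8 from 0.198 to 0.511, a 2.58-fold range. Ltf to Ngp ran from 0.171 to 2.33, a 13.6-fold range, and Ltf to S100a8 from 0.218 to 3.07, a 14.1-fold range.

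Outside the 8 genes, genes whose library shares were among those overlapping most with the mean of the 8 were Clasrp (93.5%), Dnajb12 (92.7%), Smu1 (92.4%) and Ndufa13 (92.3%), among 10861 genes ranked over 8 libraries. Clasrp ran from 38.9 CPM in the MPP library labelled N5 to 90.5 CPM in the MPP library labelled DKO. Their likeness is a description over 8 libraries.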

How the data were processed

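Polyadenylated RNA from sorted cell pools was extracted with a column kit for small inputs and made into Smart-Seq2 libraries, which carry neither molecular identifiers nor strand, per the labels' protocols. The submitters' processing notes name STAR 2.7.8a, RSEM 1.3.0 and GRCm39. Raw counts per gene, all whole numbers and not normalized, were deposited by the authors as a single table. The step from RSEM's estimates to whole numbers is not given in the sources used here. All 8 columns were matched to samples by name, with 0 left over. Overlapping genes and near-identical copies may share reads.

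Counts were tested over the whole table with edgeR 4.0.16 (quasi-likelihood, TMM, filterByExpr by cell type, 12132 of 53700 genes, Benjamini-Hochberg adjustment at 0.05) in R 4.3.3. HSC against MPP used genotype as a block, and Nfat5 and Ifnar1 loss used cell type and both genes as terms, with 3 or 4 residual degrees of freedom. Standard errors are the log2 fold change divided by the square root of F, and intervals use the test's degrees of freedom. DESeq2 1.42.0, limma-voom (limma 3.58.1), other filters and scalings, models with fewer terms and leaving out each library were alternatives. Single libraries were compared as log2 ratios with a prior count of 2. Levels per kb use exon lengths of an older annotation.

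The 8 genes and all other gene lists were chosen with earlier results of these data known. All 8 are reported, with up to 3 genes of highest mean CPM from each granulocyte list, the cell type markers (Ly6g, Cxcr2, Retnlg and Csf3r for neutrophils) and the 5 genes of at least 10 CPM in 1 library with the most similar library shares, 1 of which is not reported here.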

Additional observations from a re-analysis of the deposited data

Results flagged for a closer look

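Among 18 sets of 4 libraries examined (each of the 8 genes and their sum, in HSC and in MPP, on a log2 scale), 1 held a library that stood apart from the other 3. The summed level of the 8 genes in the MPP library labelled N5 was 133.464 CPM, and the next lowest MPP library, labelled IFNAR, had 578 CPM. That gap was 0.845 of the whole MPP range. Chance alone marks about 1 in 20 such sets. None of the 8 genes was marked by itself in either cell type.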

How the results depend on the processing

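Libraries of 1 genotype label were paired across cell types by the genotype block in the comparison of HSC with MPP. The labels give no replicate numbers, so no other pairing was made. In the comparison of HSC with MPP edgeR called 2 genes, and it called 23 with a filter of 10 CPM in 4 libraries, 107 with the bias-adjusted method and 207 without the genotype block, against 1880 in DESeq2 and 156 in limma-voom. None of the 8 genes was called there under any of these settings. With limma-voom 3 of 8 were higher in HSC, and Ltf (-0.029), S100a8 (-0.026), S100a9 (-0.041) and Lcn2 (-0.51) turned in sign. So did Ltf (-0.016), Lcn2 (-0.093) and Mmp8 (0.19) with the bias-adjusted method, and Lcn2 (-0.093) and Mmp8 (0.21) without the block. For Nfat5 loss DESeq2 called 166 genes, S100a8 (-0.074) and Mmp8 (0.45) turned in limma-voom, and Mmp8 turned with the bias-adjusted method (1.35) and without the Ifnar1 term (1.38). For Ifnar1 loss DESeq2 called 233 genes and 1 of the 8, Mmp8, while limma-voom and the bias-adjusted method called 1 gene each. For the interactions DESeq2 called 393, 585 and 607 genes (Nfat5 by Ifnar1, cell type by Nfat5, cell type by Ifnar1), with 1, 1 and 0 of the 8, and under the 10 CPM filter 0 of the 8 were positive for cell type by Ifnar1. The cause of these shifts was not tested.

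Leaving out each library in turn gave 0 to 0 genes called in each of the 6 tests and 1 to 7 of the 8 genes higher in HSC, 2 to 7 for Nfat5 loss and 6 to 7 for Ifnar1 loss. For the interactions 3 to 8 (Nfat5 by Ifnar1), 5 to 8 (cell type by Nfat5) and 0 to 3 (cell type by Ifnar1) were positive. Log2 fold changes for HSC against MPP ranged from -0.65 to 0.90 (Ltf), -0.21 to 0.91 (Camp), -0.39 to 0.45 (S100a8), -0.39 to 0.41 (S100a9), -0.44 to 0.89 (Lcn2) and -2.60 to 3.46 (Cd177), and for Ngp from 0.41 to 1.32. For Nfat5 loss they ranged from -1.61 to 0.15 (Ltf), -0.43 to 0.56 (Ngp), -0.51 to 0.57 (Camp), -0.52 to 0.38 (S100a8), -0.25 to 0.62 (S100a9), -0.15 to 1.09 (Lcn2) and -2.05 to 1.12 (Mmp8), and for Ifnar1 loss from -1.13 to 0.66 (Ltf). The difference of the summed levels (HSC minus MPP) ranged from -53.4 to 154 CPM over the 8 libraries left out, against 73.7 CPM with all. It was negative in 1 case, without the MPP library labelled N5. These alternatives were chosen after the data were seen.

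Summed levels of the HSC libraries labelled WT and IFNAR and the MPP library labelled IFNAR were 571, 504 and 569 CPM with DESeq2 size factors, and the latter 2 were 510.2 and 565 CPM without scaling. Without the highest member they were 314, 509.8, 339.7 and 438 CPM in HSC (WT, N5, IFNAR, DKO) and 377, 97.0, 430.1 and 584 CPM in MPP. At a 4-fold threshold 7 of the Nfat5 pair ratios passed, against 16 at 2-fold. With 1 library per group, pools of 5 mice and targeted genes that did not follow their labels, no replicate spread within a group is known, and PCR copies are not separate molecules.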
